A study of Homo sapiens with 4 samples.

Results

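The cytosolic heat shock genes described here are HSF1, HSPA1A, HSPA1B, HSPA8, HSPH1, DNAJB1, HSP90AA1, HSP90AB1, HSPB1 and BAG3. They were chosen by name, and each of the 10 symbols matched 1 of the 23459 genes listed in the count files. RNA-Seq was performed on wild-type hTERT RPE-1 cells, a line from human retinal pigment epithelium immortalized with telomerase. All cells were serum starved and then received 200 μM merbarone, a catalytic inhibitor of DNA topoisomerase II, for 4 h (2 libraries) or 8 h (2 libraries). Every library thus carries both starvation and drug, and no untreated library was analysed here, so the values compare a later with an earlier time of exposure. Longer exposure and longer starvation cannot be told apart.

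The heat shock response protects cells when proteins lose their fold. HSF1 is its main transcription factor in mammals. In unstressed cells it is held back by chaperones, and when unfolded proteins draw the chaperones away it assembles, binds heat shock elements in promoters and turns on chaperone genes. Chaperones of the HSP70 class (HSPA1A, HSPA1B, HSPA8) hold and refold client proteins together with J-domain proteins such as DNAJB1, which deliver clients, and exchange factors such as HSPH1 and BAG3, which release nucleotide. HSP90 chaperones (HSP90AA1, HSP90AB1) complete the folding of kinases and receptors, and small heat shock proteins such as HSPB1 keep unfolded proteins soluble.

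The libraries held between 8064450 and 10324697 counted reads, the fewest in replicate 2 at 8 h. The study calls the replicates biological, and the labels do not say whether they came from separate cultures. Replicates differed by more than read sampling (chi-square per degree of freedom 2.67 at 4 h and 3.84 at 8 h). Of 15 markers of retinal pigment epithelium, KRT8, KRT18, MITF and OTX2 were expressed, whereas TYR and DCT had no count in any library and RPE65, RLBP1 and BEST1 reached at most 7.16 normalized counts. Of the 8 that passed the filter, KRT18 was called lower (log2 fold change −0.51), while 6 had a log2 fold change above zero and the median was 0.19. The summed marker level was 7700.6 and 8150 at 4 h, against 6959.7 and 7342 at 8 h, and KRT18 alone went from a mean of 3366 to 2370.2. From 10 markers of other cell types, 8 failed the expression filter, with CD3E and EPCAM at 0 in all libraries. Their sum, nearly all of it ACTA2, was 14933 and 14327 at 4 h, against 14991 and 14284 at 8 h, and COL1A1 was called lower (−0.80). The part of these markers in the results below was not tested. In such bulk samples, fewer cells of a type and less RNA per cell cannot be told apart.

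The promoters of HSPA1A, HSPA1B and HSPB1, which rose between the times, are shown beside that of HSP90AA1, which did not pass the test. Each line gives the 200 bases before a RefSeq start site on GRCh38.p14, read 5′ to 3′ on the gene's strand (plus for the first 3 lines, minus for HSP90AA1). Capitals mark the cores of heat shock elements, GAANNTTC or TTCNNGAA, each of which reads the same on both strands.
HSPA1A chr6:31815343-31815542: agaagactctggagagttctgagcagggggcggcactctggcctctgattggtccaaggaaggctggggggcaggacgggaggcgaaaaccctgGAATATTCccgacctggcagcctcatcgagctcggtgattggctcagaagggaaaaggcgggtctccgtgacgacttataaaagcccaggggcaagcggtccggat
HSPA1B chr6:31827538-31827737: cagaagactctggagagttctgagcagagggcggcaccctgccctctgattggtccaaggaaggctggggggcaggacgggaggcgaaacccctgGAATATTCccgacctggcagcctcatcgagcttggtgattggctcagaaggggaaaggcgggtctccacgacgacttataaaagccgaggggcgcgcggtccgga
HSPB1 chr7:76302473-76302672: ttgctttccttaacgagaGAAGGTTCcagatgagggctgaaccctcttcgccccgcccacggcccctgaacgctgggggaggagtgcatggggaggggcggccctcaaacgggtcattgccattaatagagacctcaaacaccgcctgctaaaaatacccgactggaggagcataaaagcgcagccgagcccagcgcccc
HSP90AA1 chr14:102087045-102087244: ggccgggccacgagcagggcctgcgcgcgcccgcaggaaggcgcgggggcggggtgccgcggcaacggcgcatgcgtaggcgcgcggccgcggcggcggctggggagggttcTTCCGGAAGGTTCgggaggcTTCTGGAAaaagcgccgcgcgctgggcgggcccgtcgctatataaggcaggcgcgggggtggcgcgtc
HSPA1A and HSPA1B have near-copies of 1 promoter. Over these stretches 188 of 201 aligned positions were identical (93.5%). Each has 1 core, GAATATTC, beginning 106 bases before the start in HSPA1A and 105 in HSPA1B. Both also have a TATAAA box, at 30 and 29 bases before the start, and 2 CCAAT boxes. HSPB1 has 1 core, which begins 182 bases before its start. HSP90AA1 has 3 cores before the start site shown, of which the pair beginning 88 and 83 bases before the start overlap and share their middle unit.

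Of the 10 genes, 9 had promoter windows in the RefSeq table, 14 windows of 300 bases in all, from 250 before to 50 after a start. HSF1 had no window there, so the motif counts leave it out. A core was found in 8 of the 14 windows, which belong to 7 genes, and in none of those of BAG3 and HSPH1. Over all 35116 windows of the table, 13.5% held a core. The longer element, in which both cores overlap on a shared unit, was found in 3 of the 14 windows, 1 each of HSPA8, HSP90AA1 and HSP90AB1, against 0.49% of all windows. Those of HSPA8 and HSP90AB1 held 2 such elements each. TATAAA was found in 11.5% of all windows and CCAAT in 34.6%, each on either strand. A match is only a match of letters, and binding of HSF1 was not measured.

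The authors kept reads with a single place in the genome and used an aligner that does not span introns, which limits what could be counted for this family. For 1 transcript of each gene (the Ensembl canonical one), all windows of 75 bases, the read length, were searched in the GRCh37 primary assembly with up to 2 mismatches, a number assumed here. HSPA1A and HSPA1B have a single exon each, yet only 19.9% and 23.7% of their windows had no other place in the genome. The remaining 1864 windows of each matched the other gene, 80.1% of those of HSPA1A. With exact matches only, 26.2% and 29.8% of the windows were unique. Alternative haplotypes of chromosome 6, which some distributions of hg19 hold, were not searched. Whether the authors' index held them is not given in the sources used here, and with them fewer windows of both genes could be unique. Under either setting the counts of these genes come from the short stretches in which they differ. For HSPA8, HSP90AA1 and HSP90AB1, whose genes have many processed copies in the genome, 34.4%, 32.9% and 29.7% of all transcript windows lay in 1 exon and were unique. HSF1, HSPH1 and BAG3 had no second place for any window inside an exon of that transcript. By this search, only windows across introns were lost for them, and other losses of reads were not tested.

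**Figure D1:**
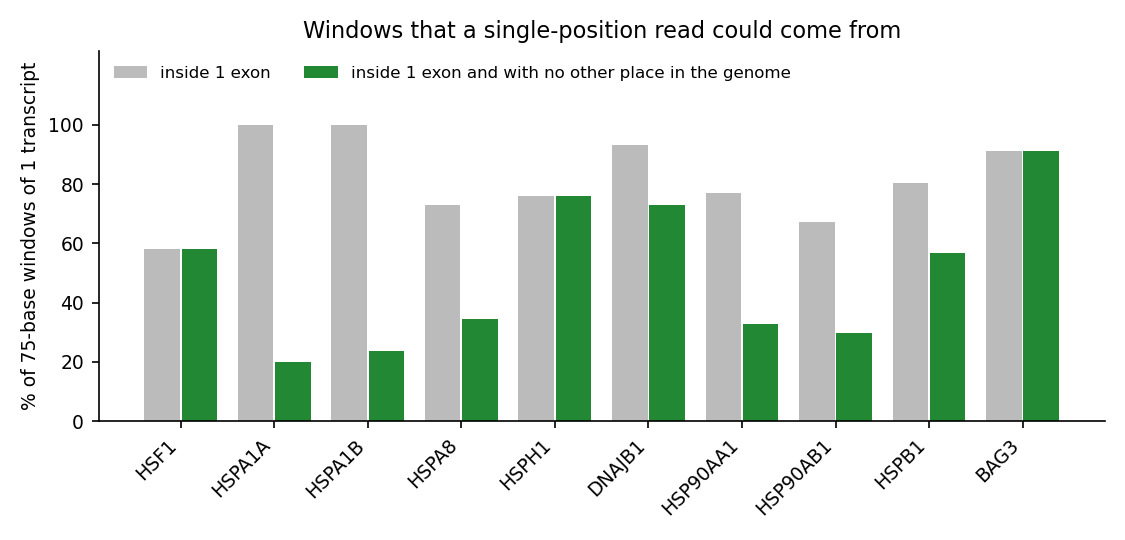
Share of the 75-base windows of 1 transcript of each gene (vertical axis, percent) that lie inside 1 exon (grey bars) and that also have no other place in the genome with up to 2 mismatches (green bars). The green bars of HSPA1A and HSPA1B stand at 19.9% and 23.7%, and that of BAG3 at 91.1%.

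Between 4 h and 8 h, the inducible HSP70 genes HSPA1A and HSPA1B rose 2.89-fold and 2.52-fold, and HSPB1 and HSF1 rose less. The other 6 genes, HSPA8, HSPH1, DNAJB1, HSP90AA1, HSP90AB1 and BAG3, did not pass the test. All 10 genes passed the expression filter (more than 1 CPM, a count scaled to library size that equals 8.06 to 10.3 reads here, in 2 or more libraries), as did 12559 genes in all. A gene was called when its edgeR quasi-likelihood test gave a Benjamini-Hochberg adjusted p below 0.05 over all genes tested. Of the 10 genes, 4 were called higher at 8 h, where 19.9% of all genes tested were. Lower at 8 h were 0, where 18.8% of all genes were. At an unadjusted p below 0.05 edgeR gave 5 higher and 0 lower, a rule for which the share of all genes was not computed. Limma-Voom called 4 higher and 0 lower, where 2483 and 2339 of the 12559 genes were. DESeq2 also called 4 and 0, where 1792 and 1498 of the 12559 genes were. With the absolute log2 fold change above 1 that the study used added to the rule, 2 genes were called higher (1.45% of all genes tested) and 0 lower (3.88% of all genes). The median log2 fold change of the 10 genes was 0.18, and of all genes tested it was 0.00, with a middle range from −0.31 to 0.26. Libraries of the times did not overlap for 8 of the 10 genes, with 8 h above in 7 (34.8% of all genes) and below in 1 (34.9% of all genes).

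**Figure D2:**
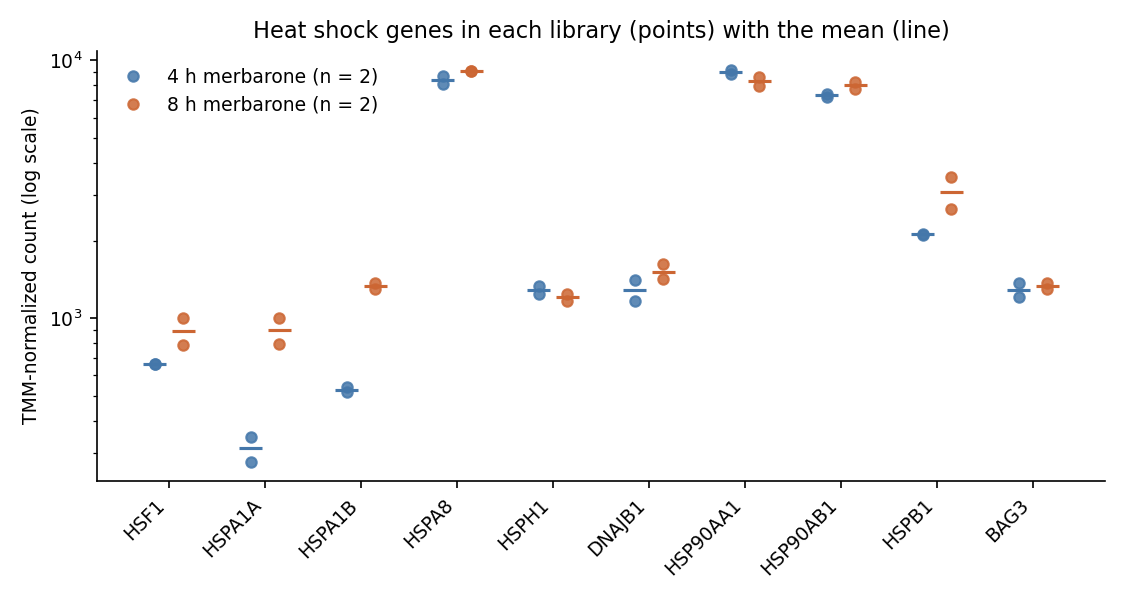
TMM-normalized count of each gene (vertical axis, log scale) in each library (points) with the mean (line), at 4 h (blue, n = 2) and 8 h (orange, n = 2). HSPA1A moved from 278 and 347 to 1004 and 796, while HSPH1 and BAG3 overlap between the times.

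**Figure D3:**
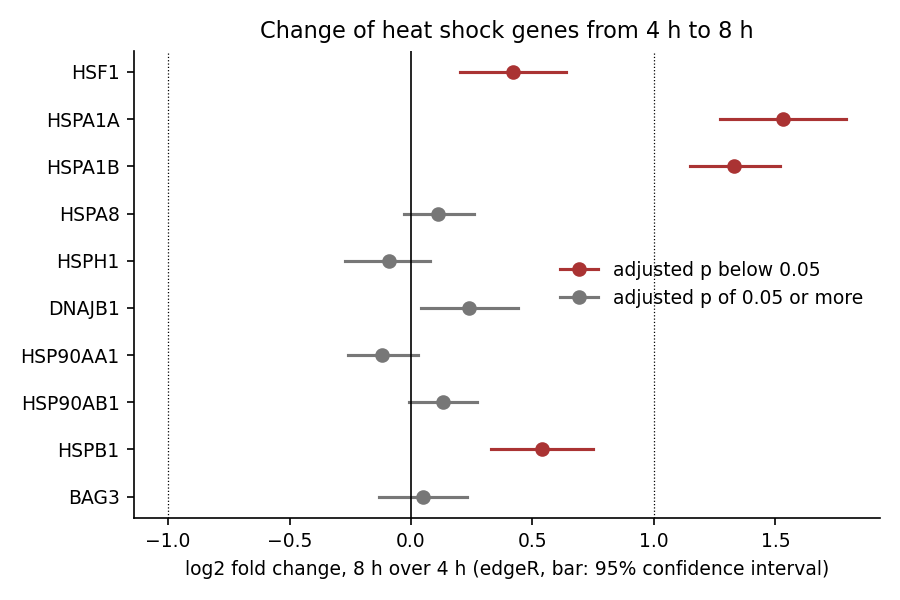
Log2 fold change from 4 h to 8 h of each gene (horizontal axis) with its 95% confidence interval (bar) from edgeR, in red where the adjusted p was below 0.05. The intervals of HSPA1A and HSPA1B lie above the dotted line at 1, and those of the other 8 genes lie between the dotted lines.

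HSF1, the transcription factor of the response, had TMM-normalized counts of 668 and 664 in replicates 1 and 2 at 4 h, and of 785 and 1000.2 at 8 h. Both 8 h libraries lay above both 4 h libraries, and they differed more from each other than the 4 h libraries did. The mean went from 666 ± 2.87 to 893 ± 152 (SD, n = 2 each), a log2 fold change of 0.42 (standard error 0.10, edgeR adjusted p = 0.00337). Without replicate 2 at 8 h, the shallowest library, the log2 fold change was 0.24 and the edgeR adjusted p was 0.0628, so the call rests on that library. The gene overlaps DGAT1, an enzyme of fat storage, whose log2 fold change was 0.40 (standard error 0.13), and whether the counting used the strand is not given in the sources used here. DGAT1 had from 221 to 265 counts per library, against 732 to 805 for HSF1. Whether reads of DGAT1 entered the HSF1 count was not tested.

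HSPA1A (chromosome 6, 31783320 to 31785723, plus strand, hg19), an inducible HSP70, had normalized counts of 278 and 347 at 4 h, against 1004 and 796 at 8 h. The lower 8 h library lay far above the higher 4 h library. Its mean of 313 ± 48.8 at 4 h became 900.4 ± 147 at 8 h (SD, n = 2 each). This is 2.89-fold (95% confidence interval 2.42 to 3.45), or a log2 fold change of 1.53 (standard error 0.12, edgeR adjusted p = 1.78e-08). The counts behind it were 310 and 383 reads at 4 h, against 982 and 641 at 8 h.

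HSPA1B (chromosome 6, 31795515 to 31798031, plus strand, hg19), which encodes nearly the same protein and lies next to HSPA1A, had 517 and 540.3 normalized counts at 4 h, against 1367 and 1295 at 8 h. Replicates of each time lay close together, and the times did not overlap. The change was 2.52-fold (95% confidence interval 2.22 to 2.86), from 529 ± 16.55 to 1331 ± 51.4 (SD, n = 2 each), with a log2 fold change of 1.33 (standard error 0.09, edgeR adjusted p = 2.06e-09). For both genes the call held under each of the 11 alternatives tried, with log2 fold changes from 1.35 to 1.70 for HSPA1A and from 1.23 to 1.37 for HSPA1B. Among the alternatives, a second expression filter repeated the main fit.

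HSPA8 (chromosome 11, 122928197 to 122933938, minus strand, hg19), the constitutive HSP70 that most cells use for everyday folding, had 8074 and 8734 normalized counts at 4 h, against 9101 and 9091 at 8 h. The times did not overlap, but the gap was smaller than the distance between the 4 h replicates. The mean was 8404 ± 467 at 4 h and 9096 ± 6.97 at 8 h (SD, n = 2 each). Its log2 fold change of 0.11 had an interval from −0.03 to 0.26 (edgeR adjusted p = 0.199).

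The balance within the HSP70 class was also compared. In each library the counts of HSPA1A plus HSPA1B were divided by those of HSPA8, which needs no scaling between libraries. The ratio came to 0.0985 and 0.102 at 4 h, against 0.261 and 0.23 at 8 h. On the log2 scale the difference between times was 1.29, with an SD between replicates of 0.03 at 4 h and 0.13 at 8 h. An exact permutation test of 2 libraries against 2 cannot give a two-sided p below 0.333, which is the value found here (exact permutation p = 0.5 after adjustment over 3 ratios). Reads from the shared part of HSPA1A and HSPA1B are not in the ratio. HSPA1A to HSPA1B gave ratios of 0.538 and 0.643 at 4 h, against 0.734 and 0.615 at 8 h, and these ranges overlap (exact permutation p = 0.667).

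**Figure D4:**
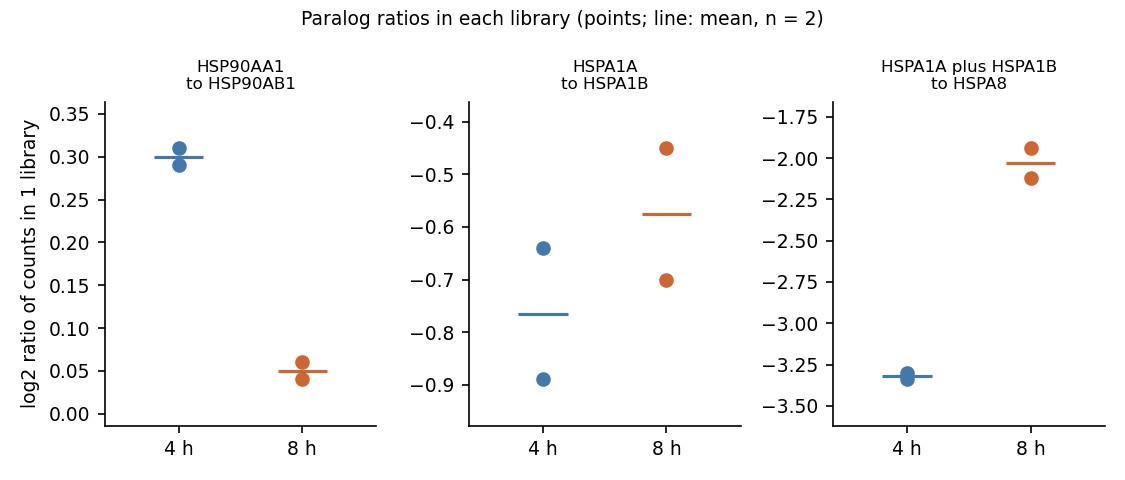
Log2 ratio of counts of related genes within each library (points, with the mean of n = 2 as a line) at 4 h and 8 h. Each panel has its own vertical range. HSP90AA1 to HSP90AB1 was 0.31 and 0.29, then 0.06 and 0.04, HSPA1A to HSPA1B overlapped, and the inducible HSP70 genes to HSPA8 were at −3.34 and −3.30, then −1.94 and −2.12.

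DNAJB1 (chromosome 19, 14625581 to 14671203, minus strand, hg19), the J-domain partner of HSP70, had 1166 and 1407 normalized counts at 4 h, against 1619 and 1415 at 8 h. The lower 8 h library lay just above the higher 4 h library. The mean was 1286 ± 171 and 1517 ± 144 (SD, n = 2 each), and the log2 fold change of 0.24 (interval 0.04 to 0.44) gave an edgeR adjusted p of 0.0528, just outside the threshold. The adjusted p ranged from 0.00257 to 0.563 over the alternatives, and 5 of 11 passed, among them the leaving out of replicate 2 at 4 h (0.0238) or of replicate 2 at 8 h (0.00257). DNAJB1 overlaps TECR, which had between 114 and 208 counts in a library and a log2 fold change of −0.28.

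The exchange factors showed no difference between the times that passed the test. HSPH1 (chromosome 13, 31709110 to 31736525, minus strand, hg19), the HSP110 protein that exchanges nucleotide on HSP70, had 1329 and 1246.5 normalized counts at 4 h, against 1166 and 1247.5 at 8 h. These overlap, and the log2 fold change was −0.09 (interval −0.27 to 0.08, edgeR adjusted p = 0.386). BAG3 (chromosome 10, 121410892 to 121437331, plus strand, hg19), which links HSP70 and small heat shock proteins to autophagy, had 1209 and 1367 at 4 h, against 1295 and 1374 at 8 h. Here the log2 fold change was 0.05 (interval −0.13 to 0.23, edgeR adjusted p = 0.671), and its sign turned with library size alone (−0.06) and without replicate 1 at 4 h (−0.04). Rises above 1.06-fold for HSPH1 and above 1.17-fold for BAG3 lie outside these intervals.

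The HSP90 genes had opposite signs, and neither passed the test. HSP90AA1 (chromosome 14, 102547079 to 102606036, minus strand, hg19), the more inducible HSP90, had 9155 and 8858 normalized counts at 4 h, against 8629 and 7983 at 8 h. Both 8 h libraries lay below both 4 h libraries. Its log2 fold change was −0.12 (interval −0.26 to 0.03, edgeR adjusted p = 0.193). HSP90AB1 (chromosome 6, 44213903 to 44221625, plus strand, hg19), the constitutive HSP90, had 7395.5 and 7244 at 4 h, against 8258.5 and 7749.5 at 8 h. Both 8 h libraries lay above both 4 h libraries in this case. Its log2 fold change was 0.13 (interval −0.01 to 0.27, edgeR adjusted p = 0.146). Without replicate 1 at 8 h HSP90AA1 was called (−0.17, edgeR adjusted p = 0.0472), and without replicate 2 at 8 h HSP90AB1 was (0.17, edgeR adjusted p = 0.0499). With library size in place of TMM, which moved the median of all genes by −0.11, the log2 fold change of HSP90AA1 was −0.22 and it was called (edgeR adjusted p = 0.0159), which made the count 4 higher and 1 lower.

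The ratio of HSP90AA1 to HSP90AB1 within a library is free of that scaling. It stood at 1.24 and 1.22 at 4 h, against 1.04 and 1.03 at 8 h. On the log2 scale the difference between times was −0.25, from 0.30 ± 0.01 to 0.05 ± 0.01 (SD, n = 2 each). The exact permutation p was 0.333, the smallest the design can give. HSP90AA1 overlaps WDR20, with 371 to 505 counts in a library and a log2 fold change of 0.49. Whether reads of WDR20 entered the HSP90AA1 count was not tested. The summed normalized count of both HSP90 genes was 16551 and 16102 at 4 h, against 16887 and 15733 at 8 h, and these ranges overlap.

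HSPB1 (chromosome 7, 75931990 to 75933612, plus strand, hg19), the small heat shock protein also called HSP27, had 2111 and 2123 normalized counts at 4 h, against 2643 and 3529 at 8 h. The 4 h replicates were nearly equal and the 8 h replicates were not, with the higher value again in replicate 2. The mean went from 2117 ± 8.83 to 3086 ± 626.5 (SD, n = 2 each), a 1.46-fold rise (95% confidence interval 1.26 to 1.68) with a log2 fold change of 0.54 (standard error 0.10, edgeR adjusted p = 0.000281). Without replicate 2 at 8 h the log2 fold change was 0.32, and without replicate 1 at 8 h it was 0.74. In these fits the spread between the 8 h replicates no longer enters, so only the size of the change is given.

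Levels of different genes were compared per kilobase of exon, since long genes collect more reads. In TMM-normalized CPM per kilobase of all annotated exons, the order at 4 h was HSP90AB1 (256.2), HSP90AA1 (184.3), HSPA8 (180.8), HSPB1 (136.1), BAG3 (49.1), HSPA1B (21.9), DNAJB1 (16.4), HSPH1 (16.01), HSPA1A (13.6) and HSF1 (13.1). Levels of HSP90AA1 and HSPA8 overlapped between libraries, as did those of DNAJB1 and HSPH1 and those of HSPA1A and HSF1, while the other neighbours did not. At 8 h HSPB1 stood second (198.3 ± 40.3), overlapping HSPA8 (195.7 ± 0.15), and HSPA1B (55.2 ± 2.13) stood above BAG3 (50.9 ± 2.14). HSPA1A was above DNAJB1 and HSPH1, at 39.1 ± 6.38 (SD, n = 2). The order depended on the length used. Exon length takes no account of the small unique share of HSPA1A and HSPA1B, 19.9% and 23.7% of their windows. Per kilobase of 1 transcript at 8 h, HSPA1B (55.16) overlapped BAG3 (54.35), and HSPA1A (39.13) lay below DNAJB1 (70.58). Levels were also taken per 1000 windows unique in the primary assembly with up to 2 mismatches, an assumed number on which this measure depends. The measure was chosen after seeing the data. By it HSPA8 was highest at 4 h (1164 ± 64.6), before HSP90AB1 (1036 ± 15.1) and HSP90AA1 (904.2 ± 21.1). HSPA1A at 8 h reached 203.3 ± 33.2. At 4 h HSPA1B (95.23) already lay above BAG3 (59.31) by this measure, and HSPA1A (70.6) above HSPH1 (34.2). The 10 genes together took between 0.344% and 0.363% of the counts of a library, of which HSPA8 and the HSP90 genes took 0.248% to 0.269%.

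Other genes of protein folding were grouped into 10 lists, holding 128 genes in all, some of them in more than 1 list. Of the 120 that passed the filter, 37 were called higher (30.8%) and 23 lower (19.2%) at 8 h, where 19.9% of all genes tested were called higher and 18.8% lower. The same shares are the background of the main edgeR calls in each list below. Counts under another setting have the counts over all genes under that setting as their background. For an unadjusted p no such count was computed. With library size alone in place of TMM, which moves every gene the same way, the lists had 26 higher and 33 lower, and all genes tested had 1698 and 3289, in place of 2500 and 2367. DESeq2 called 31 list genes higher and 12 lower, where 1792 and 1498 of all genes tested were. Of 39 genes named from the lists by size of change, 23 kept their call under all 11 alternatives. The others lost it in at least 1. Without replicate 1 at 4 h the calls of BAG1 (0.25), BAG6 (0.17), CLPP (0.36), DNAJC2 (−0.44), DNAJC9 (−0.44), FKBP4 (0.28), HSBP1 (−0.18), HSPA14 (−0.33), PFDN5 (0.15) and STUB1 (0.26) were lost. Leaving out replicate 2 at 4 h removed those of BAG1 (0.39), BAG5 (−0.23), BAG6 (0.30), CLPP (0.41), DNAJA2 (0.28), DNAJC2 (−0.40), HDAC6 (−0.35), HSPA12A (−0.36), HSPA14 (−0.32), NUDC (−0.34), PFDN6 (−0.39) and STUB1 (0.31). BAG1 was also lost without replicate 1 at 8 h (0.18). Without replicate 2 at 8 h the calls of BAG6 (0.15), DNAJC2 (−0.38), HSBP1 (−0.23), HSPA12A (−0.33), HSPA14 (−0.28) and PFDN6 (−0.30) went.

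Among 8 other cytosolic HSP70 and HSP110 genes, 6 were tested, of which 2 were called higher and 3 lower (median log2 fold change −0.18). HSPA6, an HSP70 that is made almost only under stress, had 71.8 and 73.4 normalized counts at 4 h, against 185 and 130.5 at 8 h. It rose with a log2 fold change of 1.13 (standard error 0.20, edgeR adjusted p = 0.000186), and how much of it is unique beside its near-copy HSPA7 was not tested. HSPA4L rose by 0.65, and HSPA12A and HSPA14 had log2 fold changes of −0.42 and −0.32. DESeq2 called 2 of the list higher and 0 lower, so all 3 lower calls were lost with it (DESeq2 adjusted p = 0.0737 for HSPA12A, 0.0959 for HSPA14 and 0.157 for HSPA2). HSPA2, named after its values were seen, was the only gene in the 10 lists called lower with a log2 fold change below −1 (−1.12), on 11 to 34 counts in a library, and it lost the call without either 4 h library and without replicate 1 at 8 h (−0.81).

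Of the 11 J-domain genes tested from a list of 12, 1 was called higher and 4 lower (median −0.14). DNAJA1, which like DNAJB1 is a cytosolic partner of HSP70 and a known HSF1 target, went from 1372 and 1466 normalized counts to 973 and 864. The log2 fold change was −0.63 (standard error 0.09, edgeR adjusted p = 1.54e-05). DNAJC9, which works on histones, and DNAJC2, which acts at the ribosome, had log2 fold changes of −0.49 and −0.42, the latter not called by DESeq2 (adjusted p = 0.15). DNAJA2 was called higher, by 0.33. With library size alone the list had 0 higher and 5 lower, and DESeq2 called 1 and 2.

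Of the HSP90 co-chaperones, 4 of 20 were called higher, a share near that of all genes (19.9%), and 6 lower, against 18.8% of all genes (median −0.10). The counts were 1 and 8 with library size alone and 3 and 3 by DESeq2. TOMM34 (0.52), FKBP4 (0.31) and STUB1 (0.29) were called higher. FKBP5, a co-chaperone of steroid receptors, STIP1, which couples HSP70 to HSP90, and NUDC had log2 fold changes of −0.51, −0.39 and −0.37. In the other BAG and exchange factor genes, 2 of 6 were called higher (BAG1 at 0.32 and BAG6 at 0.24, both lost with library size alone) and 1 lower (BAG5 at −0.29). DESeq2 called 0 higher and 0 lower (adjusted p = 0.109 for BAG1, 0.0779 for BAG6 and 0.0786 for BAG5).

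Small heat shock proteins other than HSPB1 had 5 of 8 listed genes tested, with 2 called higher and 0 lower, and the same counts came from Limma-Voom, from DESeq2 and at an unadjusted p below 0.05. Like HSPB1, HSPB8 rose, from 420 and 463 to 787.5 and 639 normalized counts (log2 fold change 0.70, standard error 0.11, edgeR adjusted p = 6.11e-05). CRYAB, or alpha B-crystallin, rose from 422 and 464 to 667 and 618 (0.54, standard error 0.10, edgeR adjusted p = 0.000339). HSPB2, HSPB6 and HSPB7 were low, at 24.5 to 88.8 normalized counts, and did not pass the test.

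For the TRiC ring and prefoldin, which fold actin and tubulin, 2 of 14 tested genes were called higher and 6 lower (median −0.17). The prefoldin subunit PFDN2 went from 514 and 538.5 to 1110 and 995 normalized counts (log2 fold change 1.00, standard error 0.09, edgeR adjusted p = 1.14e-07), whereas the ring subunits CCT6A (−0.38) and CCT2 (−0.32) and the prefoldin subunit PFDN6 (−0.50) were called lower, PFDN6 not by DESeq2 (adjusted p = 0.0950). PFDN5 was called higher by 0.25, a call lost with library size alone.

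Regulators of HSF1 and its transcription were called higher in 5 of 10 cases and lower in 2 (median 0.35). The acetyltransferases EP300 (0.95, standard error 0.10, edgeR adjusted p = 3.76e-07) and CREBBP (0.68) and the elongation kinase CDK9 (0.43) rose. HSBP1, which binds HSF1 and restrains it, and the deacetylase HDAC6 had log2 fold changes of −0.26 and −0.37, that of HSBP1 not called by DESeq2 (adjusted p = 0.0848). HSF2, a related factor, had a log2 fold change of 0.34 and did not pass (edgeR adjusted p = 0.0978). Among 20 other known HSF1 targets, several of them in the lists above, 9 were called higher and 2 lower (median 0.03). HMOX1, which breaks down heme and also answers to NRF2, rose from 740.4 and 859 to 2392 and 2179 normalized counts (1.52, standard error 0.09, edgeR adjusted p = 5.59e-10). DEDD2 (1.08) and the metallothionein gene MT2A (0.77) rose as well. How much of MT2A is unique among the metallothionein genes was not tested. DNAJA1 and STIP1 were the 2 that fell.

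Chaperones of other compartments had these counts in the same libraries. In the endoplasmic reticulum list 8 of 20 genes were called higher and 0 lower (median 0.13), with 8 and 0 by Limma-Voom, 7 and 0 by DESeq2, and 9 and 0 at an unadjusted p below 0.05, and with library size alone 6 and 2. DNAJB9 had the highest log2 fold change of the list, SIL1 one of 0.68, and HSPA5, the HSP70 of that compartment, one of 0.63, from 7447 and 7610 to 11793 and 11462 normalized counts. Mitochondrial chaperones and proteases had 4 of 16 called higher, where 19.9% of all genes were, and 1 lower (median 0.07), and DESeq2 called 2 and 1. The protease LONP1 (0.77), the mitochondrial HSP70 gene HSPA9 (0.68) and CLPP (0.39) were called higher and SPG7 (−0.50) lower. The call of CLPP was lost with library size alone (edgeR adjusted p = 0.0522) and with DESeq2 (adjusted p = 0.0509). The HSP70 genes of both compartments thus passed the test, as HSPA1A and HSPA1B did and HSPA8 did not. Whether these changes differ from each other was not tested.

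**Figure D5:**
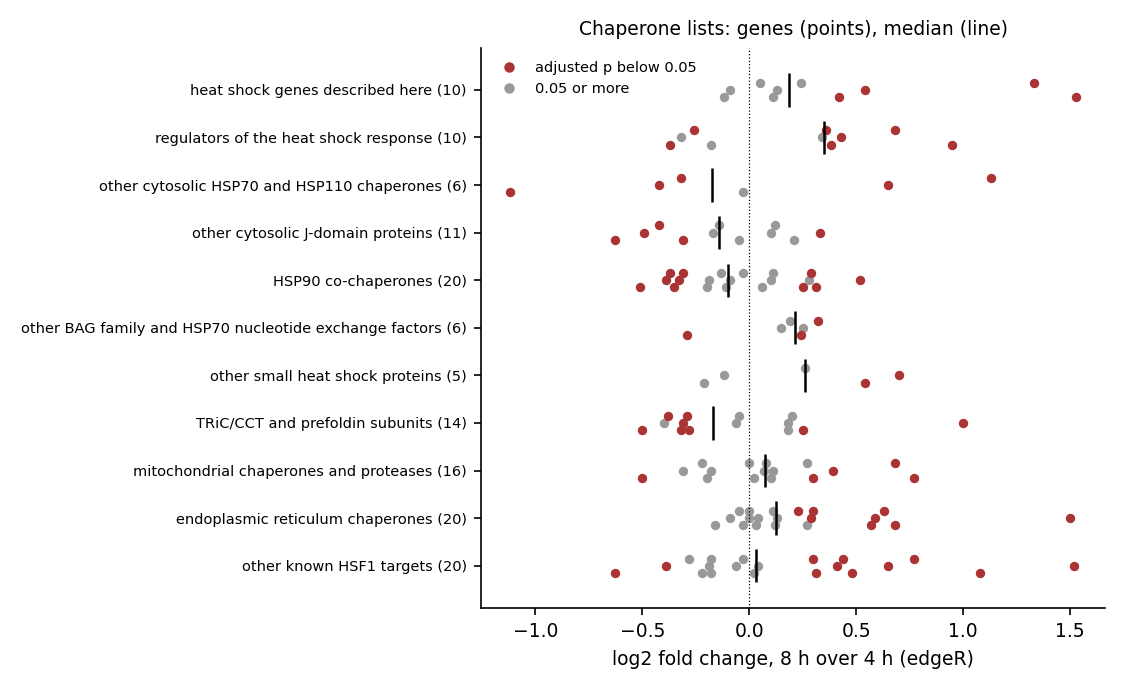
Log2 fold change from 4 h to 8 h (horizontal axis) of every tested gene in each list (rows, with the number of tested genes), in red where the edgeR adjusted p was below 0.05, with the median of each list as a black line. The small vertical offsets only separate points. The largest values in the plot are those of HSPA1A (1.53) and HMOX1 (1.52), and the lowest is that of HSPA2 (−1.12).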

How the data were processed

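The deposited counts are whole numbers of reads per gene, which the authors obtained by checking reads with FASTQC, mapping to hg19 with Bowtie 1.2.0 and keeping reads with a single place in the genome. Counts were deposited without filter or normalization, and no replicates were pooled. The gene annotation, counting tool and strand setting are not given in the sources used here. Symbols of 23308 of the 23459 NCBI Gene identifiers came from RefSeq, and positions and exons from GENCODE on GRCh37, the assembly behind hg19.

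The 12559 genes that exceeded 1 CPM in 2 or more libraries were scaled by TMM. The 8 h and 4 h libraries were compared by edgeR's quasi-likelihood test (edgeR 4.0.16, R 4.3.3) with time as the only term. Normalized counts are scaled to the mean effective library size of 9586677. Standard errors were derived from the log2 fold change and its F statistic. Limma-Voom (limma 3.58.1, the study's own test), DESeq2 1.42.0, RLE factors, library size alone, other filters, a replicate block and leaving out each library were alternatives. Tested on simulated counts for this comparison (12559 genes, 200 changed by a log2 fold change of 2), edgeR recovered 99% with 1 false call. Recovery was scored at an adjusted p below 0.05 with an absolute log2 fold change above 1, not by adjusted p alone. Smaller changes, such as those of the genes described here, were not simulated, so the score does not apply to them. Library depth ran from 8064450 to 10324697 counts. Replicate variation (biological coefficient of variation) was 6.52%, and p-values measure the spread between these 4 libraries only.

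The genes and lists were chosen with earlier results of these data known. Named from each list were the 3 largest rises and the 3 largest falls among called genes whose mean in the higher time reached 100 normalized counts. Window uniqueness and motifs were searched with numpy 2.4.6, and promoters aligned with Biopython 1.88.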

Additional observations from a re-analysis of the deposited data

How the results depend on the processing

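The calls of HSPA1A, HSPA1B and HSPB1 held under all 11 alternatives, and that of HSF1 under 10. Of these alternatives, the filterByExpr filter gave the values of the main fit and so adds no check. Without 1 library the log2 fold change of HSF1 ran from 0.24 to 0.59, the lowest without replicate 2 at 8 h (edgeR adjusted p = 0.0628). DNAJB1 passed with RLE factors (0.24, edgeR adjusted p = 0.0495) and with no filter (0.24, edgeR adjusted p = 0.0448). It also passed with the replicate block (0.24, edgeR adjusted p = 0.00732), and ran from 0.10 to 0.38 without 1 library. The block gave far smaller edgeR adjusted p-values than the main fit for HSPA1A (4.4e-50 against 1.78e-08) and HSPB1 (2.74e-11 against 0.000281). Its p-values are therefore not comparable with those of the main fit. HSP90AA1 passed with library size alone (−0.22) and ran from −0.17 to −0.06 without 1 library, and HSP90AB1 from 0.08 to 0.17. BAG3 changed sign with library size alone (−0.06) and without replicate 1 at 4 h, and ran from −0.04 to 0.14 without 1 library. With all 4 libraries, between 4 and 5 genes of the 10 were called higher under every alternative without a fold threshold, and 2 with it. Without that threshold HSF1, HSPA1A, HSPA1B and HSPB1 were always among them, and DNAJB1 was added where 5 were called. Without replicate 2 at 8 h the genes called were not the same, with HSF1 at 0.24, DNAJB1 at 0.33 and HSP90AB1 at 0.17. Called lower were 0, or 1 with library size alone, and 0 to 1 without 1 library. In the 10 lists, the fold threshold left 5 genes higher and 1 lower, DESeq2 called 12 lower, and without 1 library 11 to 26 were lower. The causes of these moves were not tested, except that a fold threshold can only remove calls.

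Libraries share replicate numbers, but deviations of same-numbered libraries from their time means had a correlation of 0.05 across genes, so the numbers were not taken to pair them. The replicate block gave 5 of the 10 genes called higher and 0 lower. With it 43 list genes were higher and 28 lower, and all genes called were 2829 higher and 2664 lower. DESeq2 called 1792 higher and 1498 lower over all genes, against 2500 and 2367 by edgeR. With library size alone 1698 were higher and 3289 lower, with the fold threshold 182 and 487, and without replicate 1 or 2 at 4 h 1605 and 1509 or 1619 and 1522. The CPM filter and filterByExpr kept an equal number of genes and gave the same values for the 10 genes, so this alternative repeated the main fit. Leaving out 1 library leaves a time with 1 library, which is then assumed to vary like the pair of the other time. Dividing counts by length cannot move the difference between times of a ratio of 2 genes, so it tests nothing there. Low depth limits HSPA2, HSPB2 and HSPB6, with under 70 counts in each library. It also limits listed genes not named above, such as TTC4 with 11 to 19 counts in a library.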
